A study of Homo sapiens with 8 samples.

Results

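The mitochondrial ribosome makes the proteins encoded by mitochondrial DNA, which are core parts of the respiratory chain and of ATP synthase. Its RNAs come from mitochondrial DNA, whereas its proteins are encoded in the nucleus, made in the cytosol and imported. Many of these proteins descend from bacterial ribosomal proteins, and others have no bacterial counterpart and were added in mitochondria. The members examined here were all genes whose RefSeq symbol is MRPL (named for the large subunit) or MRPS (named for the small subunit) followed by a number, with pseudogenes and antisense RNAs left out. They came to 77 of the 28850 genes tested, and the 77 are all protein-coding genes with such a symbol in the RefSeq table used.

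RNA was measured in LNCaP cells, a line grown from a lymph node metastasis of prostate cancer. The cells had been transfected with 30 nM of siGATA2, an siRNA against the transcription factor GATA2, or with a scrambled siRNA (siControl), and were collected after 72 h. Each group had 4 one-colour Agilent arrays and carried no other allele or agent in the labels. The siRNA was 1 sequence, so what belongs to GATA2 and what to other targets of that siRNA cannot be told apart. The labels do not say whether replicates were separate cultures, so the p-values measure the spread between these arrays, which may be technical. In such bulk RNA, fewer cells of a type and less RNA per cell cannot be told apart.

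GATA2 itself was measured by 1 probe. Its log2 signal on the arrays labelled siGATA2 was 12.61, 12.54, 11.57 and 11.40, and on those labelled siControl 11.74, 11.28, 11.10 and 11.29. The siGATA2 arrays were thus not lower, with a difference of 0.68 (SE 0.312, adjusted p = 0.154 by limma; p = 0.143 by an exact two-sided permutation test, n = 4 and 4). This 1 probe therefore gave no check of the labels, and each direction below is that of arrays so labelled. The luminal prostate markers KLK2, KLK3, TMPRSS2, FOLH1, KRT8, KRT18 and HOXB13 were well above background on all 8 arrays. The basal keratin KRT5 was on none, whereas 4 of the other 10 markers of basal, fibroblast, leukocyte and endothelial cells (COL1A1, PTPRC, CD14 and CDH5) were above background on all 8, at log2 signals from 7.41 to 9.84. Between 24261 and 37019 probes per array were well above background, and the number of arrays limits the precision.

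The array that stood apart most was siControl 1, on which the mean log2 signal of the E1A spike-in RNA was 11.13, against 13.45 to 13.83 on the other 7 arrays. The members shared this structure. The array siControl 1 was the lowest of its group for 58 of the 77 members (75.3%), against 40.4% of all genes tested. Within the siGATA2 group, arrays 1 and 2 both lay under arrays 3 and 4 for 65 members (84.4%), against 46.0% of all genes. The mean log2 signal over the members was 13.64, 13.62, 13.89 and 13.90 on siGATA2 arrays 1 to 4, and 13.82, 14.10, 14.09 and 14.08 on siControl arrays 1 to 4, so the groups overlapped in this mean. The arrays siGATA2 1 and 2 and siControl 1 carry the letters A and B in the sample titles, and the others carry D to G; what the letters stand for is not given in the sources used here.

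**Figure D1:**
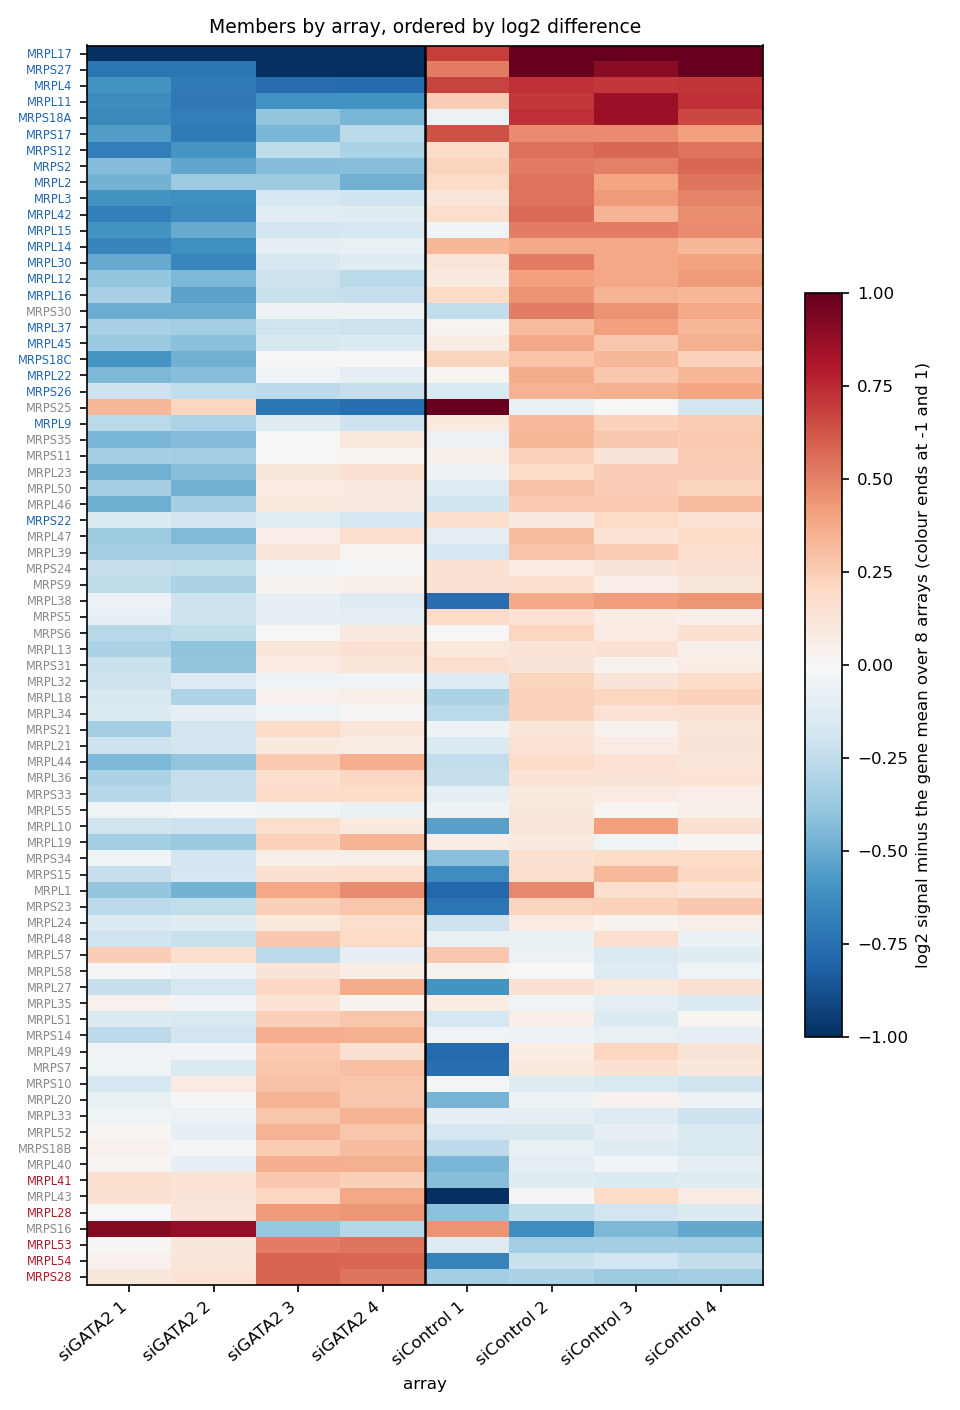
Each row is 1 of the 77 members and each column 1 of the 8 arrays; the colour is the log2 signal minus the mean of that gene over the 8 arrays, and gene names are blue where called lower, red where called higher and grey where not called. The siGATA2 arrays 1 and 2 are darker blue than arrays 3 and 4 in most rows, 65 of 77 by count, and siControl 1 is the lowest siControl array in 58 rows.

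Of the 77 members, 23 were lower on the siGATA2 arrays at an adjusted p under 0.05 (29.9%), 5 were higher (6.49%) and 49 were not called. Over all 28850 genes tested, 14.2% were called lower and 12.3% higher. Only 17858 of these have a gene symbol, as all members do, and among them the shares were 19.0% and 15.1%. Dim genes are called less often, and among the 10011 genes with a mean signal no lower than that of the dimmest member these shares were 21.0% and 18.1%. With a further threshold of 2-fold, 5 members were lower and 0 higher, against 7.13% and 4.52% of all genes. Of the 10011 brighter genes, 844 were lower and 503 higher at this threshold. The 4 siGATA2 values lay wholly under the 4 siControl values for 27 members and wholly over them for 7, against 16.5% and 16.2% of all genes. The slide position was not balanced, as 3 of the 4 siGATA2 arrays lay in 1 slide row and 3 of the 4 siControl arrays in the other. With slide row as a block 13 of the 23 members remained called lower and 2 of the 5 higher. The shares of all genes were then 10.4% lower and 7.57% higher. The median over the members was -0.29 within the first row (3 siGATA2 arrays, 1 siControl array) and -0.02 within the second (1 and 3), against 0.02 and 0.10 for all genes. No test of the list as a whole was made.

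The median log2 difference of the members was -0.20, against 0.09 for all genes tested, which is -0.29 relative to all genes. The scaling bears on the direction. With each array scaled to its 75th percentile, the median of all genes was 0.18 and that of the members -0.47 relative to it. With arrays scaled to the E1A spike-in, the median of all genes moved to -0.43, and that of the members was -0.47 relative to it. Both scalings shift all genes of an array by 1 value, so this relative figure is the same by construction. Under E1A scaling 8 members were called lower and 0 higher. Of all genes, 6.59% were then called lower and 0.489% higher. This scaling uses 7 probes, whose mean log2 signal was 11.13 on siControl 1 and at least 13.45 on each other array. Standard errors were wider under it, at 0.494 for MRPS28 against 0.137 under the main scaling. With E1A scaling the 5 members called higher lay from -0.42 to -0.018, still above the median of all genes. The move was not equal for all genes. The median of all genes went from 0.09 to -0.43, MRPL41 from 0.40 to -0.42 and MRPS28 from 0.68 to -0.018.

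**Figure D2:**
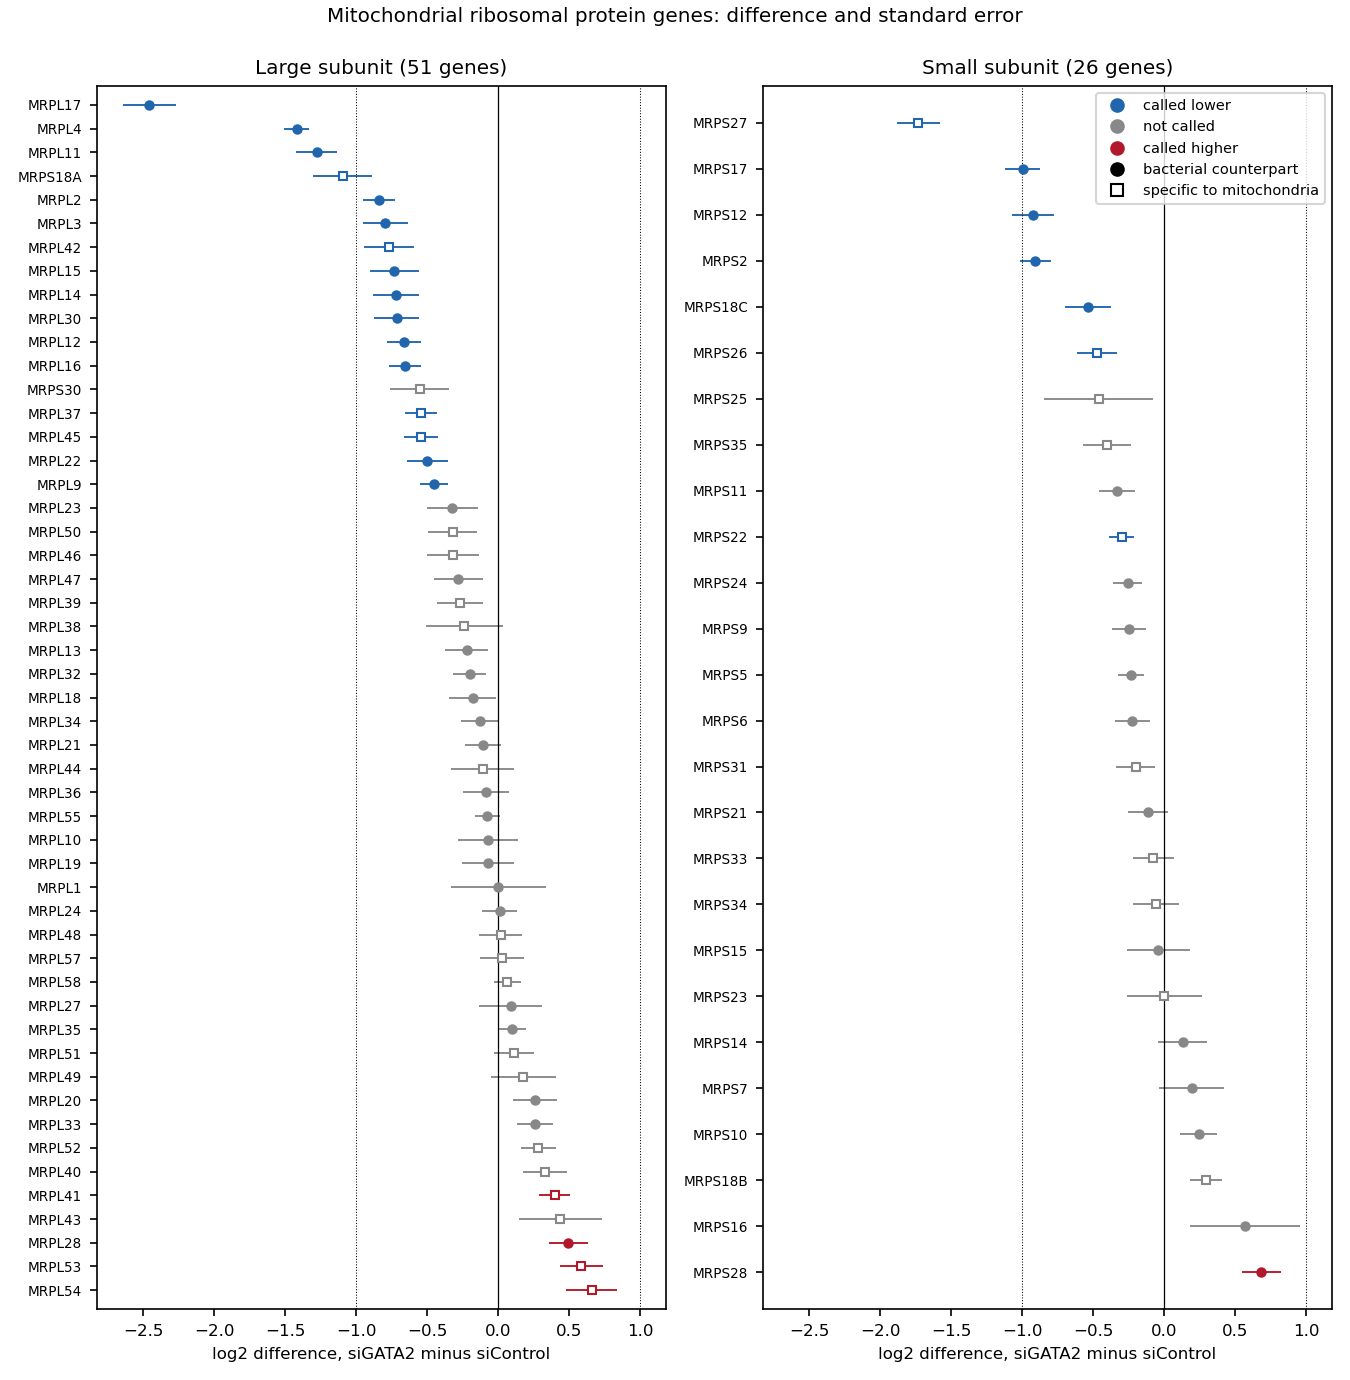
Points are the log2 difference between the arrays labelled siGATA2 and siControl for each large-subunit (left, 51 genes) and small-subunit (right, 26 genes) member, with bars of 1 standard error and dotted lines at 2-fold. The falls reach -2.46 for MRPL17, whereas no rise passes 0.68. Scaling to the E1A spike-in moves the median of all genes to -0.43, and the 5 rises then lie from -0.42 to -0.018. That scaling uses 7 probes that read low on siControl 1.

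The largest fall was that of MRPL17, the counterpart of a bacterial protein near the exit of the tunnel through which new proteins leave the ribosome. Its log2 signal was 10.39, 10.35, 10.55 and 10.68 on the siGATA2 arrays and 12.41, 13.12, 13.15 and 13.10 on the siControl arrays. The groups were far apart, and siControl 1 was the nearest of the controls. The fall was 5.48-fold (log2 -2.46, SE 0.189, adjusted p = 7.69e-05).

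MRPL4, whose bacterial counterpart lines part of the same tunnel, fell with little spread. Its log2 signals of 14.39, 14.28, 14.23 and 14.22 stood against 15.67, 15.72, 15.70 and 15.71 on the siControl arrays. Here siControl 1 stood with the other controls, and the fall was 2.67-fold (log2 -1.42, SE 0.0903, adjusted p = 3.47e-05). MRPL11 belongs to the base of the stalk where translation factors bind. It read 12.52, 12.44, 12.55 and 12.55 against 13.40, 13.86, 14.02 and 13.89, without overlap, a difference of -1.28 (SE 0.146, adjusted p = 0.000469). MRPL12, the stalk protein itself, had a smaller difference of -0.66 (SE 0.117, adjusted p = 0.00433), and its other probe gave -0.66 too.

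Among the proteins at the core of the large subunit, MRPL2 and MRPL3, whose bacterial counterparts help to build the site where peptide bonds form, differed by -0.84 (SE 0.113) and -0.79 (SE 0.158). MRPL15 differed by -0.73 (SE 0.173, adjusted p = 0.0162). MRPL42, with no bacterial counterpart, differed by -0.77 (SE 0.176, adjusted p = 0.0139). In all 4 genes the lowest siControl array, siControl 1, still lay above the highest siGATA2 array. Apart from MRPS18A, the remaining large-subunit members called lower were MRPL14, MRPL30, MRPL16, MRPL37, MRPL45, MRPL22 and MRPL9, with differences from -0.72 to -0.45.

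In the small subunit the largest fall was that of MRPS27, a protein of the pentatricopeptide repeat family, whose members bind RNA. Its log2 signals were 12.46, 12.47, 12.20 and 12.19 against 13.71, 14.23, 14.10 and 14.21. In contrast to most members, siGATA2 arrays 1 and 2 read higher than 3 and 4 here, and the groups did not overlap. The fall was 3.32-fold (log2 -1.73, SE 0.151, adjusted p = 0.000132).

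MRPS17, an RNA-binding protein of the small subunit, read 13.02, 12.88, 13.13 and 13.32 against 14.22, 14.06, 14.06 and 14.00. It was just short of 2-fold (log2 -0.997, fold 1.996, adjusted p = 0.000672), and siControl 1 was the highest control rather than the lowest. MRPS12 sits at the site where codons are read, and its bacterial counterpart is the protein altered in streptomycin resistance. It read 13.05, 13.15, 13.49 and 13.43 against 13.92, 14.29, 14.32 and 14.28, a difference of -0.92 (SE 0.149, adjusted p = 0.00265). MRPS2 read 14.95, 14.86, 14.95 and 14.95 against 15.60, 15.90, 15.88 and 15.95, a difference of -0.91 (SE 0.109, adjusted p = 0.000627). Neither gene had overlapping groups. MRPS18C, MRPS26 and MRPS22 made up the rest of the small-subunit members called lower, at -0.54, -0.47 and -0.30.

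In order of the fall, MRPL17, MRPS27, MRPL4, MRPL11, MRPS18A, MRPS17, MRPS12 and MRPS2 were the 8 members called lower under all 25 settings run. MRPS18C was the least stable of the members called lower, with an adjusted p of 0.0423, and was called in 12 of the 25 settings.

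**Figure D3:**
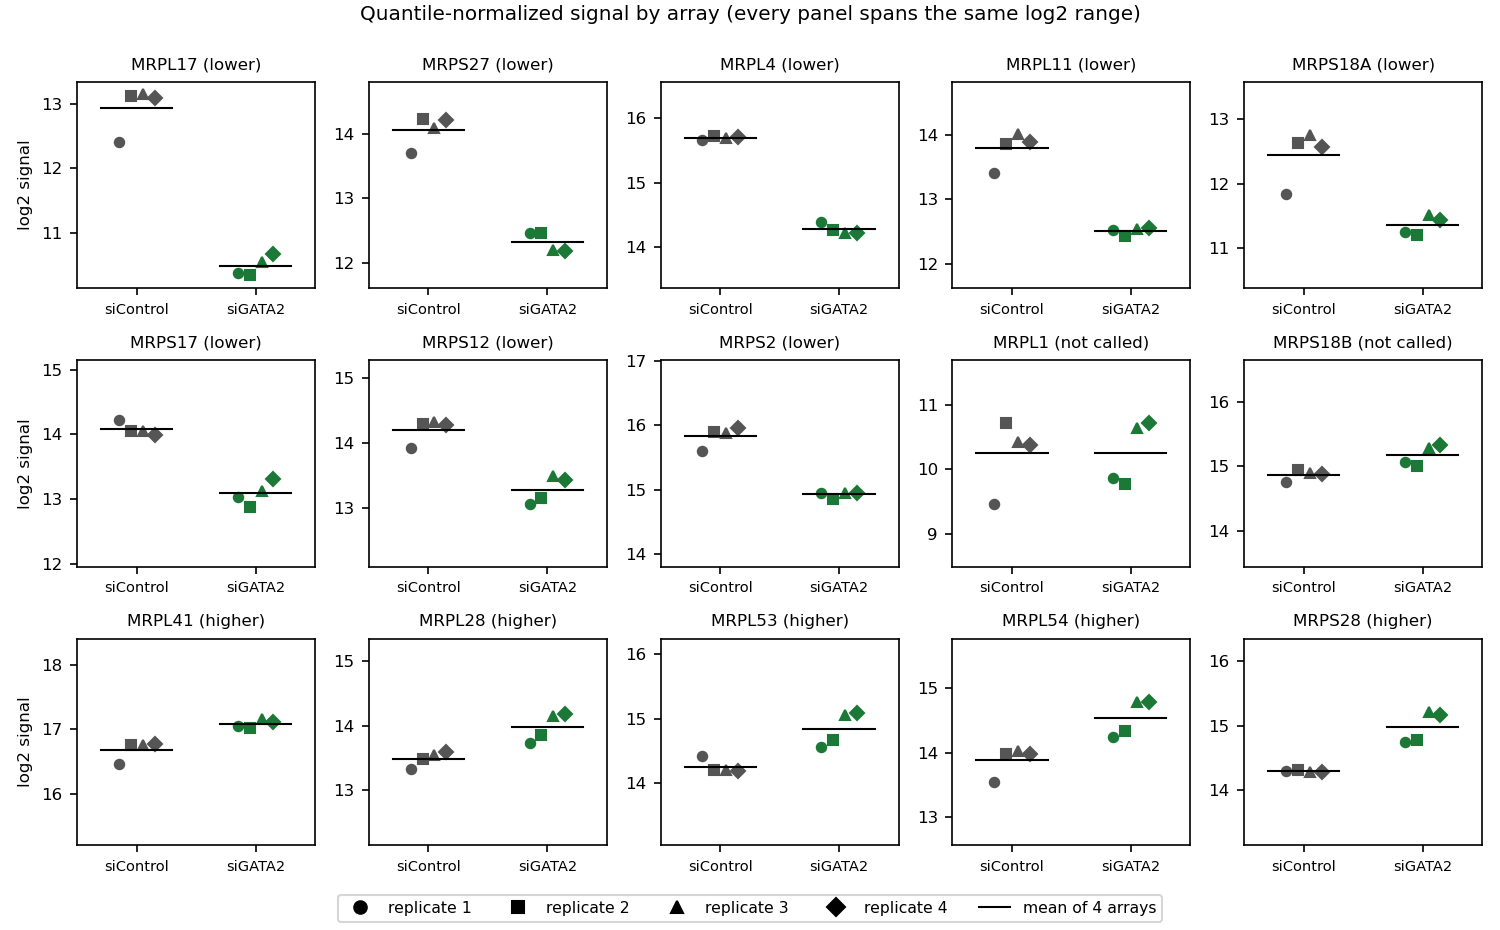
Log2 signal of 15 members on each array, with marker shapes for the replicate numbers, lines at the group means and a span of 3.2 log2 units in every panel. The first 8 panels are members called lower, with no overlap between groups. The last 5 are members called higher, which lie from -0.42 to -0.018 under scaling to the E1A spike-in, where the median of all genes is -0.43. That scaling uses 7 probes that read low on siControl 1. MRPL1 and MRPS18B are 2 of the members not called.

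A set of 5 members rose under the main scaling, and none by 2-fold. MRPS28, a small-subunit protein, read 14.75, 14.77, 15.22 and 15.17 against 14.30, 14.32, 14.28 and 14.29, a difference of 0.68 (SE 0.137, adjusted p = 0.00786). The siControl arrays agreed closely, and the distance came mostly from siGATA2 arrays 3 and 4. With E1A scaling, where the median of all genes is -0.43, the difference was -0.018.

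MRPL54 read 14.25, 14.34, 14.79 and 14.79 against 13.54, 13.99, 14.02 and 13.98 (log2 0.66, SE 0.180, adjusted p = 0.0295). MRPL53 read 14.56, 14.66, 15.06 and 15.08 against 14.42, 14.20, 14.20 and 14.19 (log2 0.59, SE 0.151, adjusted p = 0.0234). Both have no bacterial counterpart, and in both the siGATA2 arrays 3 and 4 were the highest. MRPL28, which has one, differed by 0.49 (SE 0.136), and MRPL41, which has none, by 0.40 (SE 0.109). The groups of all 5 genes were separate. Under scaling to the 75th percentile none of the 5 was called.

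The 49 members that were not called ranged from -0.55 for MRPS30 to 0.57 for MRPS16, with 29 below and 20 above 0. The 5 nearest to 0 were MRPL1 at 0.00 (SE 0.334), MRPS23 at 0.00 (SE 0.262), MRPL24 at 0.01 (SE 0.123), MRPL48 at 0.02 (SE 0.149) and MRPL57 at 0.03 (SE 0.155). Their standard errors differ, so that a change of MRPL24 is bounded more closely than one of MRPL1. MRPL1 ranged from 9.78 to 10.72 on the siGATA2 arrays and from 9.46 to 10.73 on the siControl arrays, an overlap that covers nearly the whole range. MRPS16 had 1 of the widest spreads, with 18.22, 18.19, 16.93 and 17.02 against 17.76, 16.68, 16.86 and 16.79. The 3 arrays of letters A and B were its 3 highest, as they were for GATA2, and its other probe gave -0.21 (adjusted p = 0.588).

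MRPS18A, MRPS18B and MRPS18C are paralogs that sit at different places of the same ribosome, MRPS18A in the large subunit despite its name. MRPS18A read 11.25, 11.21, 11.51 and 11.44 against 11.84, 12.63, 12.76 and 12.57, a fall of 2.14-fold (log2 -1.10, SE 0.209, adjusted p = 0.00614). MRPS18B read 15.06, 15.01, 15.28 and 15.32 against 14.76, 14.94, 14.90 and 14.88, a difference of 0.30 (SE 0.112) that was not called (adjusted p = 0.0916). MRPS18C read 13.84, 13.95, 14.44 and 14.43 against 14.66, 14.72, 14.77 and 14.66, a difference of -0.54 (SE 0.161). The paralogs thus had values of both signs, with separate groups in each. MRPS30, also a large-subunit protein despite its name, read 11.06, 11.06, 11.51 and 11.51 against 11.31, 12.07, 12.01 and 11.95. The overlap came from siControl 1, and the difference of -0.55 was not called (adjusted p = 0.0912). Without siControl 1 it was called lower (log2 -0.73, adjusted p = 0.0139). With a block for the title letters (A or B, or else a later one), a fit chosen after seeing the data, both MRPS30 (log2 -0.41, adjusted p = 0.00413) and MRPS18B (log2 0.35, adjusted p = 0.00308) were called.

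By place in the ribosome, 16 of 51 large-subunit members were called lower (31.4%) and 4 higher (7.84%). In the small subunit 7 of 26 were lower (26.9%) and 1 higher (3.85%). Of the 46 members with a bacterial counterpart, 16 were lower (34.8%) and 2 higher (4.35%), with a median of -0.22. Of the 31 specific to mitochondria, 7 were lower (22.6%) and 3 higher (9.68%), with a median of -0.11. The large-subunit members specific to mitochondria had a median of 0.02 over 21 genes, with 4 lower (19.0%) and 3 higher (14.3%). The other 3 subgroups had medians from -0.25 to -0.21. The difference between these subgroups was not tested. For comparison, 21.0% of the 10011 brighter genes were called lower and 18.1% higher. With a gene symbol as the only limit, the shares were 19.0% and 15.1%. The share lower of the members specific to mitochondria, and of their large-subunit part, was thus near these. A further 5 proteins of the mitochondrial ribosome bear other symbols (DAP3, PTCD3, AURKAIP1, CHCHD1 and GADD45GIP1), and 0 of them were called by limma, with values from -0.14 to 0.29.

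A total of 13 members had 2 probes. The probes of 7 members differed by less than 0.25 on the log2 scale, and those of 4 members had opposite signs. Those of 8 members had the same call, but only in 1 of these, MRPL12, were both probes called. MRPL37, MRPL45, MRPL53 and MRPS18C were called with the brightest probe only, and the other probe of each had the same sign. MRPL52 disagreed most among the called probes, as its brightest probe gave 0.28 (adjusted p = 0.138) and the other -0.94, which was called lower. For MRPL45 the brightest probe gave -0.54 and the other -0.06, which was not called. No member had 1 probe called lower and 1 called higher.

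The promoters of the members are shown for the letters that factors linked to mitochondrial biogenesis are known to bind. RefSeq windows of 300 bases (250 before to 50 after the start, assembly GRCh38.p14) were at hand for 69 of the 77 members, and for all but MRPL2, MRPL10, MRPL13, MRPL15, MRPL21, MRPL23, MRPL35 and MRPS28. The arrays' own files name an older assembly, hg19, and no coordinate was carried between them. The promoter of MRPL17 is shown because this gene fell most. It holds 3 matches to GCGCANGCG, the letters of NRF1, a regulator of nuclear genes for mitochondrial proteins, of which 2 overlap. That of MRPL22, a member called lower, is shown for holding both the NRF1 letters and CACGTG, the E-box that MYC binds. That of MRPL11 is shown as it holds AGATAA on the other strand, 1 of 2 such matches among the members. Each is given 5′ to 3′ on the strand of the gene, for the 250 bases before the start, with matches in capitals, at chr11:6683341-6683590 (minus strand) for MRPL17, chr5:154940823-154941072 (plus strand) for MRPL22 and chr11:66438849-66439098 (minus strand) for MRPL11.
MRPL17: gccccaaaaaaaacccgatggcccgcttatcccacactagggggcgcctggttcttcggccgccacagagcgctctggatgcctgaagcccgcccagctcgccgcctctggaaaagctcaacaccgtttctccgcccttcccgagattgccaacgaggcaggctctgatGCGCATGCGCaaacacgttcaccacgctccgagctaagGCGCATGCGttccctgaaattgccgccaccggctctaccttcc
MRPL22: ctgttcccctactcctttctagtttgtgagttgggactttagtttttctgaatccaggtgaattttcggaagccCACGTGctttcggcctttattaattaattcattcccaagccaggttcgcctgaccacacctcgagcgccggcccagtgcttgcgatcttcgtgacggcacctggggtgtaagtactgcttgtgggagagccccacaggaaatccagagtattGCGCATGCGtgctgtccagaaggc
MRPL11: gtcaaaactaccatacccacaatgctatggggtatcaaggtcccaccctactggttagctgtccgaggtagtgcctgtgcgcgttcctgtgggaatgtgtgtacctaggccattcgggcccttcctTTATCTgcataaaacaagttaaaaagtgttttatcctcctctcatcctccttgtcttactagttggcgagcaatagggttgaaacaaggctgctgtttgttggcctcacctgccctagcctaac

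Both strands were searched. The ETS letters CCGGAAG, bound by GABPA, were in 28 of the 69 windows (40.6%), against 10.6% of all 27305 windows in the table. The YY1 letters AANATGGCG were in 18 (26.1% against 3.29%), the NRF1 letters in 11 (15.9% against 7.79%), GGGGCGGGG, bound by SP1, in 16 (23.2% against 15.6%) and CACGTG in 9 (13.0% against 7.28%). The GATA letters AGATAA were in 2 windows (2.90%), MRPL11 and MRPS35, against 10.7% of all windows. Among the members called lower with a window, 8 of 21 held the ETS letters, 6 of 21 the NRF1 letters, 6 of 21 CACGTG, 5 of 21 the YY1 letters and 3 of 21 the SP1 letters. Among those not called, the counts were 17, 5, 3, 13 and 12 of 44. The table's windows include those of noncoding genes, whereas all members are protein-coding, and base composition was not matched. The shares of members and of all windows are thus not of like sets. Letters of different motifs can overlap, a match is not a bound site, and these differences were not tested.

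The factors that bind such letters did not move as 1 group. MYC had log2 signals of 12.30, 12.26, 11.98 and 12.09 on the siGATA2 arrays and 14.98, 14.98, 14.83 and 14.84 on the siControl arrays, which is 6.73-fold lower (log2 -2.75, SE 0.111). NRF1 was higher, with 9.13, 9.12, 9.11 and 9.06 against 7.86, 8.69, 8.41 and 8.63 (log2 0.71, SE 0.186, adjusted p = 0.0249). The subunits GABPA and GABPB1 of the ETS-binding factor, and YY1, were not called, at -0.15, 0.22 and 0.10. The coactivators PPARGC1B and PPRC1 fell by 1.06 and 1.22 on the log2 scale. PPARGC1A was called lower too, but was well above background on only 2 arrays of each group, so no size is given. The nuclear receptor ESRRA, which works with these coactivators, fell by 0.57. In all, 5 of the 9 regulators were called lower, PPARGC1A among them, and 1 higher.

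Several members start head to head with another gene, on the other strand and within 1000 bases, and share the stretch of DNA between the starts. There were 22 such members of the 69 with a window, and 18 pairs had a tested neighbour. Pairs are counted from each member, so that of MRPS11 and MRPL46 enters from both sides. Of the 6 members called lower among these, 5 had a neighbour that was not called and 1 a neighbour that was higher. The latter was MRPS12, whose neighbour SARS2 charges mitochondrial tRNA with serine and starts 181 bases away. SARS2 read 12.31, 12.40, 12.59 and 12.51 against 11.50, 11.68, 11.83 and 11.69, a difference of 0.78 (SE 0.115, adjusted p = 0.0018), beside the -0.92 of MRPS12. With MRPS27, the neighbour PTCD2, a mitochondrial protein that starts 133 bases away, was at 0.05 (SE 0.225).

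The reverse was seen in 3 other pairs, which were chosen after their values were seen. MRPL57 was at 0.03, whereas SKA3, a protein of the spindle that starts 106 bases away, read 8.08, 7.61, 7.74 and 7.98 against 10.22, 10.57, 10.64 and 10.50 (log2 -2.63, SE 0.149, adjusted p = 2.36e-05). MRPL51 was at 0.11, beside -1.75 (SE 0.165) for NCAPD2, a subunit of condensin. MRPL27 was at 0.09, beside -1.53 (SE 0.266) for EME1, part of a DNA repair nuclease. All 3 neighbours had groups that did not overlap. The members MRPS11 and MRPL46 are neighbours of each other, 320 bases apart, and had like values of -0.33 and -0.32, of which neither was called. The stretches between the starts are shown for the pair that moved in opposite directions and for the pair with the widest gap in log2 difference. They are on the strand of the member, 5′ to 3′, in GRCh38.p14 at chr19:38930764-38930943 (plus strand) for MRPS12, without a match to the searched letters, and at chr13:21176553-21176657 (plus strand) for MRPL57, with an NRF1 match in capitals.
MRPS12 to SARS2: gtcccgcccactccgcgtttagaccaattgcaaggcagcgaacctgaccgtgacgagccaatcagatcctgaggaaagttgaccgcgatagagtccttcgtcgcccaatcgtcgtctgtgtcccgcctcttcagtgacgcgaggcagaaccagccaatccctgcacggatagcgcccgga
MRPL57 to SKA3: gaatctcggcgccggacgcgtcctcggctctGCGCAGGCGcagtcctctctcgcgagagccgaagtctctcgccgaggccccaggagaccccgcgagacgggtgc

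**Figure D4:**
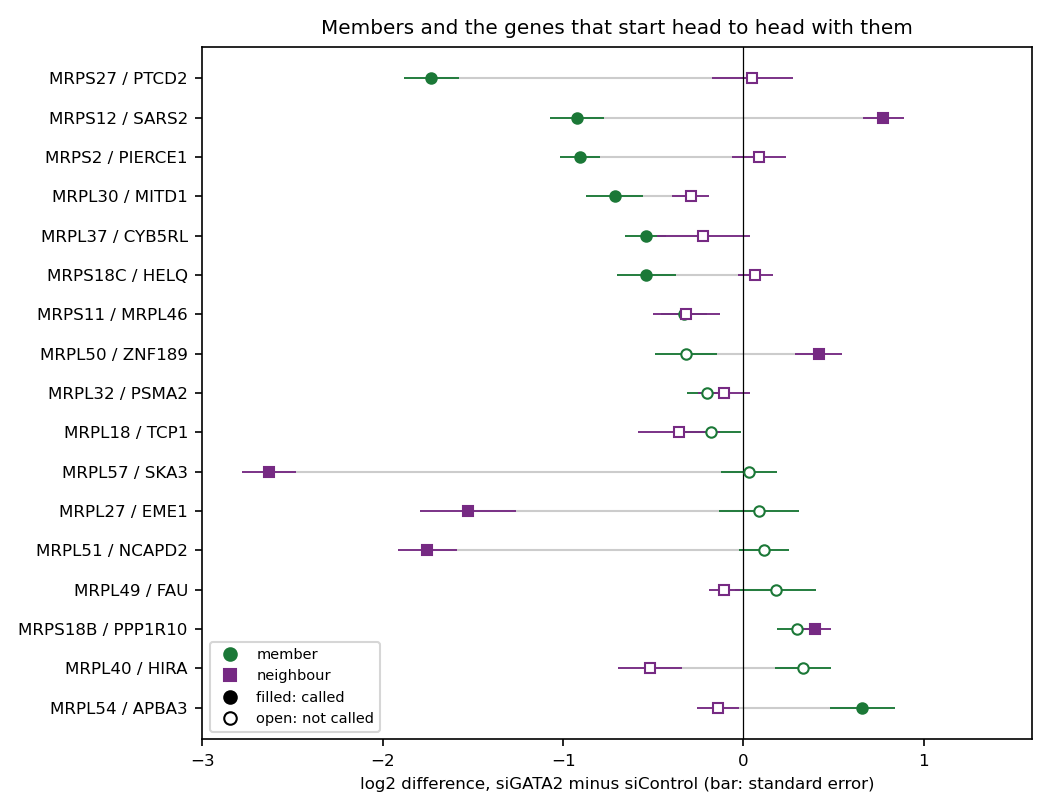
Log2 differences (siGATA2 minus siControl arrays, bars of 1 standard error) of members (circles) and of the tested genes that start head to head with them (squares), 1 pair a line, filled where called. MRPS12 and SARS2 lie on opposite sides of 0, at -0.92 and 0.78, and SKA3, NCAPD2 and EME1 lie far below the members beside them.

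Other parts of mitochondrial protein synthesis are set beside all genes tested, of which 14.2% were called lower and 12.3% higher. Among genes with a symbol these shares were 19.0% and 15.1%. Of 14 translation factors 5 were called lower and 0 higher (median -0.26), led by the recycling factor MRRF at -0.90 and by MTFMT, which formylates the initiator tRNA, at -0.87. Of 22 assembly factors of the mitochondrial ribosome, 8 were called lower and 0 higher (median -0.26). The rRNA methyltransferase MRM1, among them, read 9.34, 9.43, 9.50 and 9.41 against 10.76, 10.84, 10.81 and 10.77, a fall of 2.59-fold, and the GTPase GTPBP10 was at -0.79. Of 22 genes that charge mitochondrial tRNAs, 4 were called lower (18.2%) and 2 higher (9.09%), with a median of -0.28. The share lower was thus near that of genes with a symbol. LARS2, for leucine, was at -1.49 (SE 0.120) and GATC, part of the enzyme that completes glutaminyl-tRNA, at -1.48 (SE 0.233). By contrast RARS2, for arginine, was at 0.51 (SE 0.128), or -0.15 under E1A scaling, where the median of all genes is -0.43. Of 10 genes of mitochondrial DNA replication and transcription, 5 were called lower and 0 higher (median -0.46), led by the helicase TWNK at -1.94 and the nuclease MGME1 at -1.28. With slide row as a block the counts called lower fell to 3 translation factors, 3 assembly factors, 2 tRNA-charging genes and 2 of the DNA genes. Under E1A scaling they were 1, 1, 2 and 2. Over all genes, 10.4% were called lower with the block and 6.59% under E1A scaling.

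Nuclear genes for the respiratory chain and ATP synthase, whose products join those that the mitochondrial ribosome makes, had the opposite balance under the main scaling. Of 77, 4 were called lower (5.19%) and 21 higher (27.3%), against 14.2% and 12.3% of all genes, with a median of 0.22. This direction depended on the scaling, as the median relative to all genes was 0.13 under quantile normalization and -0.12 under 75th percentile scaling, where 3 were lower and 3 higher. NDUFA7 was at 0.77 (SE 0.152) and ATP5F1A at 0.71 (SE 0.185), or -0.036 and -0.13 under E1A scaling, which are above its median of all genes. NDUFA5 was at -1.05 (SE 0.107) and CYC1 at -0.71 (SE 0.152). Of the 84 cytosolic ribosomal protein genes tested, 32 were called lower and 0 higher, with a median of -0.32. Under 75th percentile scaling 46 of them were called lower and 1 higher, under E1A scaling 5 lower, and with slide row as a block 10 lower. The shares of all genes called lower were then 13.2%, 6.59% and 10.4%. The largest falls of these genes under the main scaling were those of RPL27A, at -1.22 (SE 0.188), and RPL22L1, at -1.12 (SE 0.0898). Many cytosolic ribosomal protein genes have near-identical pseudogenes, so their probes can hybridize to more than 1 transcript. No test compared the members with these lists.

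**Figure D5:**
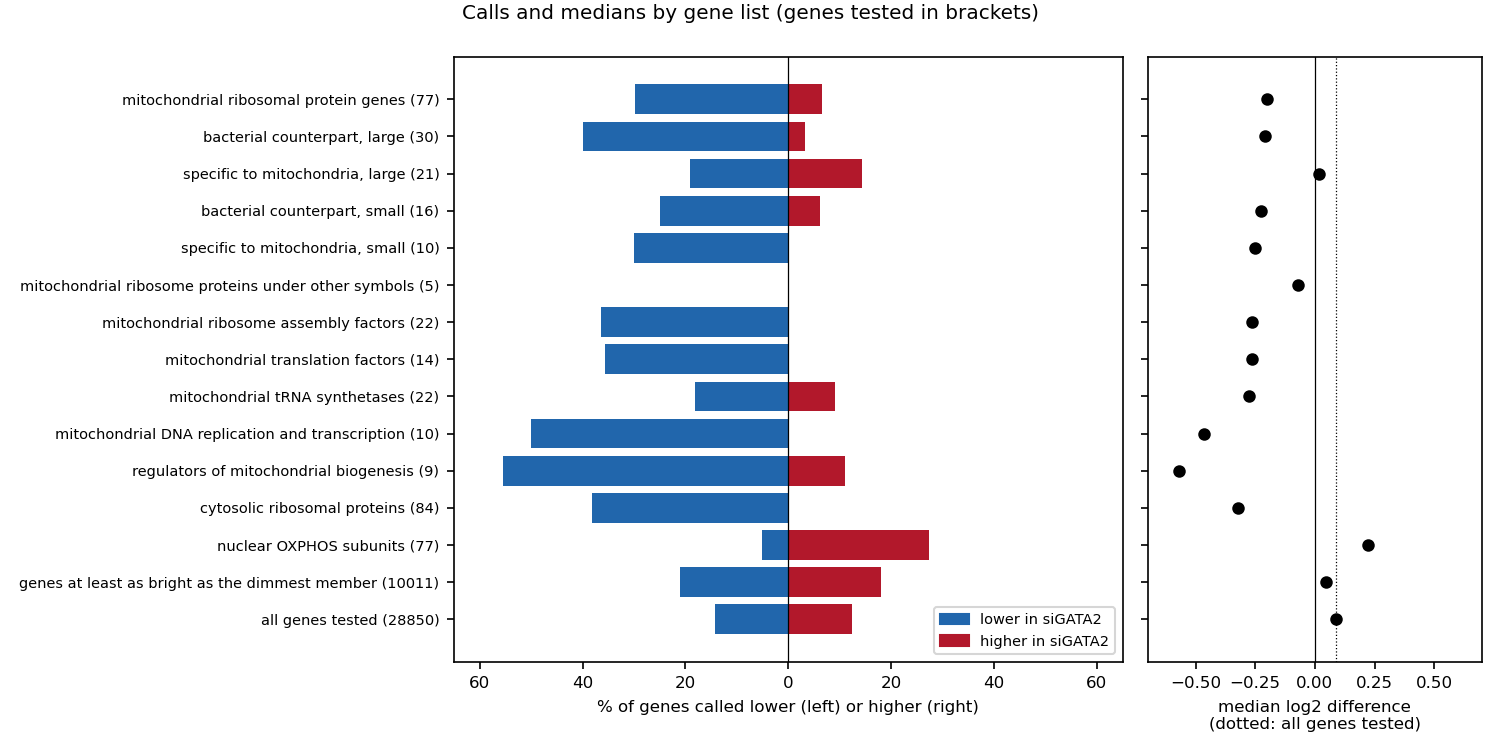
Left, the percent of each gene list called lower (to the left) or higher (to the right) on the siGATA2 arrays; right, the median log2 difference of each list, with a dotted line for all genes tested. The members stand at 29.9% lower and 6.49% higher, beside 14.2% and 12.3% of all genes. Genes at least as bright as the dimmest member stand at 21.0% and 18.1%. The rises of the nuclear OXPHOS subunits (respiratory chain and ATP synthase) fall from 21 genes to 3 under 75th percentile scaling.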

How the data were processed

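LNCaP RNA was hybridized to 4 arrays per group in 1 colour. The authors deposited spot intensities from Agilent Feature Extraction 11.0.1.1, which were background-subtracted but not normalized between arrays. They also deposited log2 values, used here as an alternative; the methods name quantile normalization. Array control spots and outlier-flagged spots were left out.

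Here the processed signal was taken to log2, averaged where a probe had several spots, and quantile-normalized (limma 3.58.1, R 4.3.3). RefSeq accessions gave the gene names (26364 of 27902 probes with one matched a symbol). Those without annotation or with a mean log2 signal under 3 were left out, and each gene was read from its brightest probe. Groups, taken from the sample labels, were compared over 28850 genes with lmFit and eBayes of limma, with Benjamini-Hochberg adjustment, and called at an adjusted p under 0.05. GATA2 was also tested by an exact permutation test. The test was tried on simulated data with 200 changed genes, of which 54.5% were called. The share was 40% for changes of 1 on the log2 scale and 69% for changes of 2. Of the calls 3.54% were false. A gene that was not called may thus still have changed. The simulation changed 200 of 28730 genes, whereas 14.2% and 12.3% of all genes were called lower and higher in the data. It also had no array that stood apart over many genes, as siControl 1 did. The simulated shares called and false may thus not hold for these data. A total of 24 alternatives were run.

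The members and the gene lists were chosen with earlier results of these data known. Genes named are the 12 called members with the largest fall and the 5 with the largest rise, the 5 nearest to 0, the MRPS18 paralogs, MRPS30, the extremes of each list, and the regulators. Messenger RNAs of mitochondrial DNA had no probe that was matched and were not analysed here. Some marker genes are not reported here.

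Promoter sequences are those of RefSeq. Head-to-head neighbours were found from the starts in that table.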

Additional observations from a re-analysis of the deposited data

Results flagged for a closer look

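For many members 1 array lay far from the other 3 of its group, judged by its gap to the nearest of them as a share of the range of the 4. This happened in 29 of the 154 groups of 4 that the 77 members give, and in 26 of the 29 the array was siControl 1. About 1 in 20 independent groups would pass this cut by chance, but the members share the same arrays. The 29 groups are thus not independent, and how often all genes pass the cut was not counted. Among the members named, the share was 0.933 for MRPL15, 0.927 for MRPL17, 0.834 for MRPL24, 0.952 for MRPL41, 0.963 for MRPL53, 0.906 for MRPL54, 0.914 for MRPS12, 0.954 for MRPS23 and 0.834 for MRPS30. For all of these the array was siControl 1. In MRPL53 it was the highest of the 4 controls, and in the others the lowest. The mean over the 77 members had a share of 0.903 on the same array. Of the other named genes, siControl 1 stood apart for AURKAIP1 (0.832), MTFMT (0.899), RARS2 (0.849), CYC1 (0.942) and ATP5F1A (0.929).

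Other arrays stood apart in MRPS2, where siGATA2 2 was the lowest with a share of 0.915, in MRPL48, where siControl 3 was the highest with 0.963, and in YY1, where siControl 2 was the highest with 0.910. Without siControl 1, 24 members were called lower and 3 higher, with a median of -0.25. Of all genes, 15.3% were then called lower and 13.7% higher. The spread of the negative control spots was 4.49 on siControl 1, 7.26 on siControl 3 and from 1.78 to 2.40 on the other 6 arrays. Its part in these results was not tested.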

How the results depend on the processing

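The 23 and 5 members called lower and higher, the 5 lower by at least 2-fold and the median of -0.20 were recomputed under 24 alternatives, and no called member was ever called in the other direction. Scaling to the E1A spike-in left 8 lower, 0 higher and 8 lower by 2-fold, and moved the median to -0.90. It called 6.59% of all genes lower and 0.489% higher. Under it MRPS28 (-0.018), MRPL54 (-0.035), MRPL53 (-0.13), MRPL28 (-0.21), MRPL41 (-0.42), RARS2 (-0.15), NDUFA7 (-0.036) and ATP5F1A (-0.13) turned below 0, together with the median of all genes at -0.43, above which they stayed; the scaling uses 7 probes that read low on siControl 1. Scaling to the 75th percentile gave 0 higher and 8 lower by 2-fold, against 14.1% and 6.53% of all genes. Array weights gave 46 lower and 10 lower by 2-fold, and a GATA2 difference of 1.102 (adjusted p = 0.00194). They also called more of all genes, 26.1% lower and 27.9% higher. With slide row as a block 13 were lower and 2 higher, against 10.4% and 7.57% of all genes. With siControl arrays 2 and 4 only, 1 was higher, against 9.49% of all genes. A block for the title letters (A or B, against the later ones) and a fit on letters D to G alone were both chosen after seeing the data. Each gave 13 higher, with 31 and 29 lower. Of all genes, 19.95% were called lower and 24.9% higher with the letters block, and 19.3% and 23.6% in the fit on D to G. The member medians were -0.15 and -0.11, or -0.25 and -0.22 relative to all genes. GATA2 was at 0.47 (adjusted p = 0.0261) with the letters block. Leaving out each array in turn gave 18 to 24 lower, 1 to 4 higher, 5 to 6 lower by 2-fold and medians from -0.25 to -0.12. The shares of all genes ran from 11.2% to 15.3% lower and from 8.91% to 13.7% higher. The lowest count of 1 higher came without siControl 2, without siControl 4, without siGATA2 3 and without siGATA2 4, and 2 came without siControl 3 and 3 without siControl 1. The other causes were not tested. The shared replicate numbers gave no pairing, as same-numbered arrays deviated with correlations of 0.54, -0.31, 0.17 and 0.22. With the replicate block 18 members were lower and 3 higher, against 12.9% and 11.7% of all genes. Title letters are shared between groups, B by siGATA2 2 and siControl 1, and F by siGATA2 4 and siControl 3. Whether they mark pairs is not given. A fit that let arrays of 1 title letter be correlated gave 26 lower and 6 higher, against 17.1% and 18.5% of all genes. A slide block was not run because the 8 arrays share 1 slide. The brightness of the probes did not limit the members, since all 77 were well above background on all 8 arrays, whereas 4 arrays a group limit the precision.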
